A study of Mus musculus with 10 samples.

Results

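The 8 genes described here encode the enzymes and direct regulators of lipolysis. They are the lipases Pnpla2, Lipe and Mgll, the related hydrolases Pnpla3 and Ces1d, the coactivator Abhd5, and the inhibitors G0s2 and Hilpda. They were chosen by symbol, as named enzymes and regulators of the pathway, from the 55414 genes counted by RNAseq of interscapular brown adipose tissue (iBAT). RNA came from 5 Cre+ mice (RetSat flox/flox with a Ucp1-Cre transgene) and 5 Cre- mice (RetSat flox/flox without it). All 10 mice were C57BL/6J, carried floxed RetSat alleles, were fed normal chow and were killed at 12 to 14 weeks of age. Cre was driven by the Ucp1 promoter, so that other cells of the tissue keep RetSat, and since Cre- mice carry no Cre transgene, effects of RetSat loss and of the transgene itself cannot be told apart. The comparison asks what loss of RetSat, an oxidoreductase of the endoplasmic reticulum, does to these transcripts in BAT of chow-fed mice.

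Lipolysis splits the triglycerides of lipid droplets into fatty acids and glycerol, and in brown adipocytes the fatty acids both activate uncoupling protein and serve as its fuel. Adipose triglyceride lipase (ATGL, encoded by Pnpla2) removes the first fatty acid, hormone-sensitive lipase (Lipe) the next and monoglyceride lipase (Mgll) the last. At rest, perilipin on the droplet holds ABHD5 away from ATGL. Adrenergic signals raise cAMP, protein kinase A then phosphorylates perilipin and hormone-sensitive lipase, and ABHD5 is set free to activate ATGL. G0S2 and HILPDA bind ATGL and inhibit it. Much of this control acts on proteins, which RNAseq does not measure.

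RetSat transcripts were lower in every Cre+ mouse, with 18.9, 20.7, 39.0, 18.0 and 23.0 CPM (counts scaled to library size by TMM), against 151, 169, 156, 194 and 255 CPM in Cre- mice. This gave a log2 FC of -2.95 (SE 0.24), with a false discovery rate (FDR, the Benjamini-Hochberg adjusted p over 17690 tested genes) of 0.00402 in the quasi-likelihood test of edgeR. Total counts were 96991071 to 110293494 per library in Cre+ mice and 91903095 to 132499312 in Cre- mice. Adipocyte markers were abundant in every library, with summed levels of 13871 to 18721 CPM in Cre+ mice against 15423 to 18968 CPM in Cre- mice for 6 genes. Brown adipocyte markers summed to 6892 to 9462 CPM in Cre+ mice against 6831 to 8705 CPM in Cre- mice for 9 genes. Skeletal muscle markers stood out in 2 libraries, with 224 CPM in Cre+ replicate 4 and 453 CPM in Cre- replicate 2 against 1.29 to 18.2 CPM in the others. Cre+ replicate 4 also had the lowest adipocyte sum. White adipocyte markers summed to at most 143 CPM in Cre+ mice against at most 73.9 CPM in Cre- mice, with Hoxc10 at 0 throughout. The 143 CPM were those of Cre+ replicate 3, which also had the most fibroblast (831 CPM) and Schwann cell markers (53.0 CPM). The highest Cre- sums of these 2 lists were 692 and 43.3 CPM. The part of tissue make-up in other values of Cre+ replicate 3 was not tested. Of 58 tested genes in 12 lists of cell type markers, edgeR and limma voom called 0 and DESeq2 3, where DESeq2 called 2.28% of all genes. By unadjusted p below 0.05 edgeR had 7 higher and 2 lower, where 6.4% and 5.95% of all genes were. The identifiers of Cre+ replicates 1, 4 and 5 carry an added letter that no Cre- identifier has, so that a difference tied to that letter and one tied to genotype cannot be told apart across groups.

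None of the 8 lipolysis genes was called different between Cre+ and Cre- mice in the test across all genes. All 8 passed the filter on low counts, and edgeR called 0 of them at an FDR under 0.05, where 0.164% of all genes tested were called. DESeq2 and limma voom with sample quality weights also called 0 of 8, where they called 2.28% and 0.837% of all genes. By unadjusted p below 0.05, edgeR took 1 of the 8, Hilpda, and 12.3% of all genes. The groups overlapped for all 8, while they did not overlap for 2.67% of all genes. Log2 FCs ran from -0.38 for Hilpda to 0.25 for Abhd5, with 5 above and 3 below 0 and a median of 0.08, beside a median of 0.00 over all genes. In bulk tissue, fewer cells of a type and less RNA per cell cannot be told apart.

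**Figure D1:**
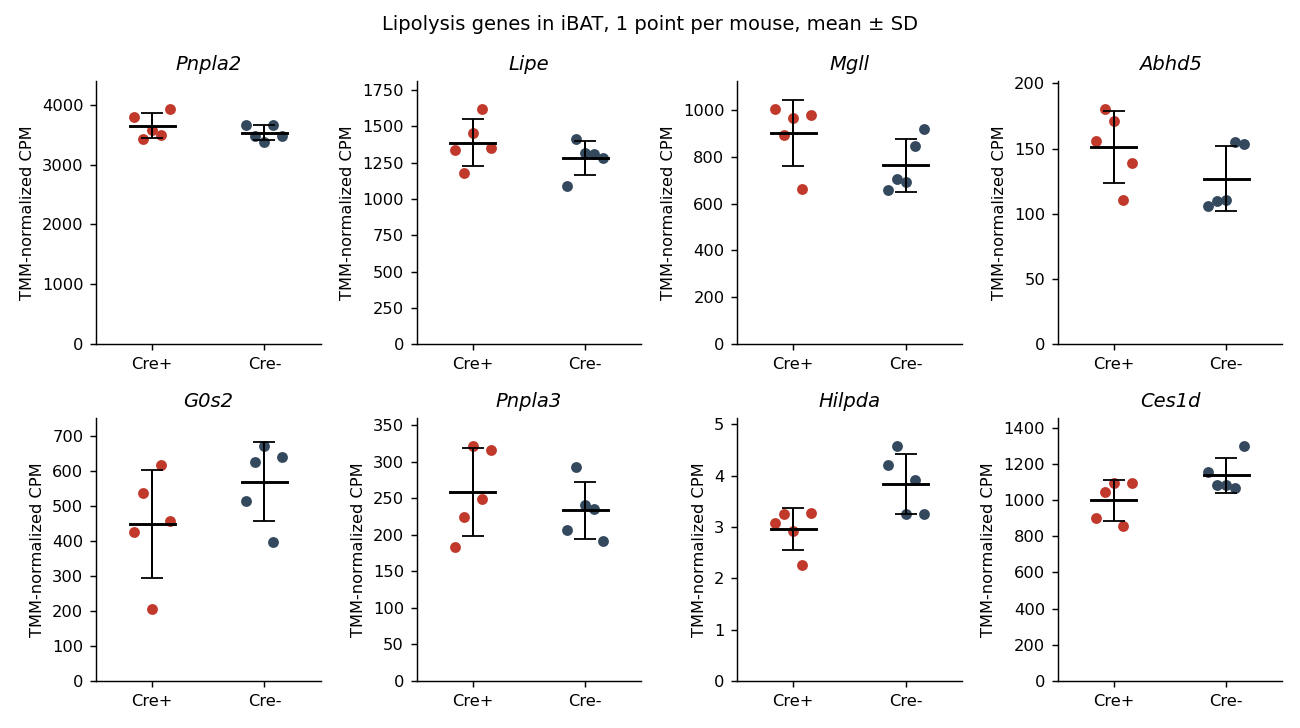
TMM-normalized CPM of the 8 lipolysis genes, with 1 point per mouse, Cre+ (red) left of Cre- (dark), a thick line at the mean and bars for the SD (n = 5 each). The groups overlap in every panel, and Hilpda, with means of 2.96 and 3.84 CPM in Cre+ and Cre- mice, has the only unadjusted p below 0.05.

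The genes lie on chromosomes 1, 6, 7, 8, 9 and 15 of GRCm39, and none is next to RetSat. Mgll (ENSMUSG00000033174.18, chromosome 6, 88701394 to 88805342, plus strand) lies 16115986 bp from it and Hilpda (ENSMUSG00000043421.9, chromosome 6, 29272487 to 29275445, plus strand) 43300013 bp. Promoter windows (250 bases before to 50 after an annotated start, RefSeq, GRCm38.p6) were found for 7 of the 8 genes, all but Ces1d. They were searched on both strands for 3 short motifs of factors that act in this pathway, and a match is only a run of letters. The cAMP response element TGACGTCA occurred in Pnpla3 alone, and in 1.79% of 32851 windows. The E-box CACGTG, which carbohydrate-sensing and clock factors can bind, occurred in Lipe and Mgll and in 7.15% of windows. The core of the hypoxia response element, ACGTG or GCGTG, occurred in 6 of the genes, Hilpda among them, and in 43.8% of windows. It overlaps the E-box wherever ACGTG is part of CACGTG. Lipe, Mgll and Hilpda had 2 windows each, so a count of genes and a share of windows are unlike measures. The stretches below show the rarer motifs wherever they were found, with the motif in capitals and positions counted from the start site at 0. They also show 1 hypoxia element core of Hilpda, since other hypoxia-responsive genes are described further on. Hilpda had further cores at -111 and -8 from the same start site.
Pnpla3, cAMP response element at -46, chr15:84167759-84167788, plus strand: ggggcctcagcTGACGTCAcccgaagacag
Hilpda, hypoxia element core at -43, chr6:29272571-29272600, plus strand: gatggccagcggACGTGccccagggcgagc
Lipe, E-box at -155, chr7:25396125-25396154, minus strand: aacagggacgacCACGTGagggggcggagg
Mgll, E-box at -44, chr6:88724356-88724385, plus strand: gggggccgggcaCACGTGgggccccggcgc

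Pnpla2, the gene of ATGL (ENSMUSG00000025509.16, chromosome 7, 141035111 to 141040656, plus strand), was the most abundant of the 8 and varied least between mice. It had 3803, 3436, 3584, 3501 and 3925 CPM in Cre+ mice, against 3669.5, 3484, 3384, 3657 and 3479 CPM in Cre- mice. The lowest Cre+ mouse lay inside the Cre- range, and the highest of all 10 mice was Cre+. The log2 FC was 0.05 (SE 0.06, 95% interval -0.09 to 0.19, edgeR FDR 0.812), which in linear terms spans 0.937-fold to 1.14-fold. Pnpla2 had between 306482 and 478861 counts per library, so that counting error adds little to this spread. Its log2 FC was -0.01 without the 3 lettered Cre+ libraries, which leaves only Cre+ replicates 2 and 3.

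Lipe, the gene of hormone-sensitive lipase (ENSMUSG00000003123.16, chromosome 7, 25078952 to 25098135, minus strand), had 1334, 1176, 1451, 1617 and 1349.8 CPM in Cre+ mice, against 1089, 1408, 1319, 1311 and 1284 CPM in Cre- mice. The highest value was that of Cre+ replicate 4 and the lowest that of a Cre- mouse, with the other 8 between them. Between genotypes the log2 FC was 0.11 (SE 0.09, 95% interval -0.09 to 0.31, edgeR FDR 0.657). Its exons overlap the antisense gene 4732471J01Rik over 918 bp, and since strand was not used in counting, reads there cannot be told apart.

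Mgll had 1003, 894, 965, 663 and 980.0 CPM in Cre+ mice, against 656, 704, 692, 844 and 920.2 CPM in Cre- mice. In 4 of the 5 Cre+ mice the value was above the Cre- median, and the exception was Cre+ replicate 4. The log2 FC came to 0.24 (SE 0.12, 95% interval -0.03 to 0.50, edgeR FDR 0.454). Without Cre+ replicate 4, where Mgll was lowest among Cre+ mice, it was 0.33 (edgeR FDR 0.12, with 1.84% of all genes called). This was the lowest FDR that any of the 8 genes reached in any alternative. The antisense gene Gm26588 overlaps 167 bp of the exons of Mgll.

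**Figure D2:**
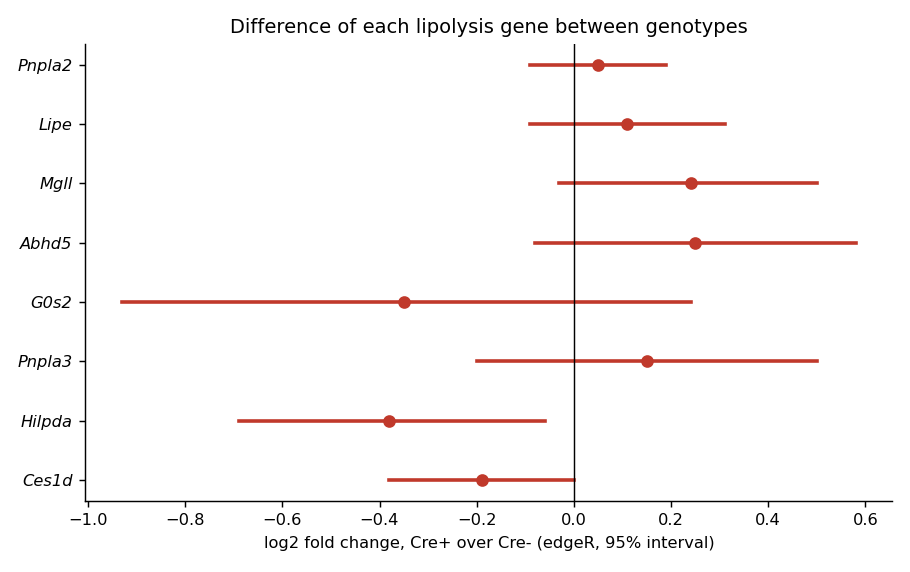
Log2 FC of each lipolysis gene, Cre+ over Cre- mice, as points with 95% intervals from edgeR (n = 5 mice each). The interval of Pnpla2, from -0.09 to 0.19, is the narrowest and that of G0s2, from -0.93 to 0.24, the widest, and only the interval of Hilpda leaves out 0.

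Pnpla3 and Ces1d encode hydrolases that also act on droplet lipids. PNPLA3 is a close relative of ATGL and has been studied mostly for its role in fatty liver, and CES1D, also known as triacylglycerol hydrolase, is a carboxylesterase of the endoplasmic reticulum. Pnpla3 (ENSMUSG00000041653.6, chromosome 15, 84052038 to 84071437, plus strand) had 183, 225, 322, 249 and 317 CPM in Cre+ mice, against 206, 293, 241, 235 and 192 CPM in Cre- mice. The Cre+ mice included both the lowest and the highest value, and the log2 FC was 0.15 (SE 0.16, 95% interval -0.20 to 0.50, edgeR FDR 0.748). Gm49513 overlaps 105 bp of its exons on the same strand.

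Ces1d (ENSMUSG00000056973.7, chromosome 8, 93892696 to 93924466, minus strand) had 903, 1044, 1096, 854 and 1096 CPM in Cre+ mice, against 1155, 1082, 1081, 1067 and 1299 CPM in Cre- mice. In 3 Cre+ mice the value was below every Cre- mouse, and in the other 2 it was inside the Cre- range. This gave a log2 FC of -0.19 (SE 0.09, 95% interval -0.38 to 0.00, edgeR FDR 0.42). Ces1d has related Ces1 genes, and since reads with several alignments were not counted, its level is uncertain. How many reads were lost in this way was not tested.

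Abhd5 encodes the coactivator that ATGL needs for full activity (ENSMUSG00000032540.17, chromosome 9, 122180673 to 122210589, plus strand). It had 156, 180.2, 171, 111 and 139 CPM in Cre+ mice, against 106, 109.5, 111, 155 and 153 CPM in Cre- mice. Cre- mice fell into 3 low and 2 high values, and the Cre+ mice spread over the same range with 3 of them higher still. Its log2 FC was 0.25 (SE 0.15, 95% interval -0.08 to 0.58, edgeR FDR 0.528). As for Mgll, the lowest Cre+ value was that of replicate 4, and without it the log2 FC was 0.35. The antisense gene A730085K08Rik overlaps 950 bp of its exons.

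G0s2, the gene of the main ATGL inhibitor of adipocytes (ENSMUSG00000009633.4, chromosome 1, 192954469 to 192955525, minus strand), varied most among the 8. It had 426, 539, 205, 618 and 456 CPM in Cre+ mice, against 514, 626, 672, 397 and 642 CPM in Cre- mice. Cre+ replicate 3 was the lowest by far, and all 5 Cre+ mice were below the Cre- median of 626 CPM, although a Cre- mouse was below 4 of them. The log2 FC was -0.35 (SE 0.26, 95% interval -0.93 to 0.24, edgeR FDR 0.633), which in linear terms spans 0.524-fold to 1.18-fold. Without Cre+ replicate 3 it was -0.17.

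Hilpda, a hypoxia-inducible inhibitor of ATGL, was the least abundant, with 227 to 549 counts per library. It had 3.08, 3.26, 2.93, 2.26 and 3.27 CPM in Cre+ mice, against 4.21, 4.58, 3.26, 3.92 and 3.25 CPM in Cre- mice. In 3 Cre- mice the value was above every Cre+ mouse, and the other 2 Cre- mice were level with the upper Cre+ mice. Between genotypes the log2 FC was -0.38 (SE 0.14, 95% interval -0.69 to -0.06, unadjusted p = 0.0215 and FDR 0.317 by edgeR), and FDR was 0.187 from DESeq2. Over 19 alternatives it kept a negative sign, from -0.43 to -0.23, with FDR from 0.187 to 0.63.

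Per kb of exon, the order over all 10 mice was Pnpla2, G0s2, Ces1d, Lipe, Mgll, Pnpla3, Abhd5 and Hilpda. Pnpla2 averaged 1209 ± 68.6 CPM per kb in Cre+ and 1170.5 ± 41.1 CPM per kb in Cre- mice (SD, n = 5 each), above each of the others in every mouse. The inhibitor G0s2 came next with 515 ± 178 and 655 ± 131 CPM per kb in Cre+ and Cre- mice, and was above Ces1d in 9 of 10 mice. Ces1d had 422 ± 47.7 and 479.8 ± 40.9 CPM per kb in Cre+ and Cre- mice, above Lipe without overlap. Lipe was above Mgll in all 10 mice, although their ranges over mice overlapped (185 to 275 and 129 to 197 CPM per kb). Mgll and Pnpla3 did not separate, with Mgll higher in 4 of 10 mice. Abhd5, at 25.4 ± 4.64 CPM per kb in Cre+ and 21.3 ± 4.20 CPM per kb in Cre- mice, was far below the lipase that its protein activates. Hilpda, at 2.68 ± 0.375 CPM per kb in Cre+ and 3.48 ± 0.531 CPM per kb in Cre- mice, was far below the other inhibitor.

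**Figure D3:**
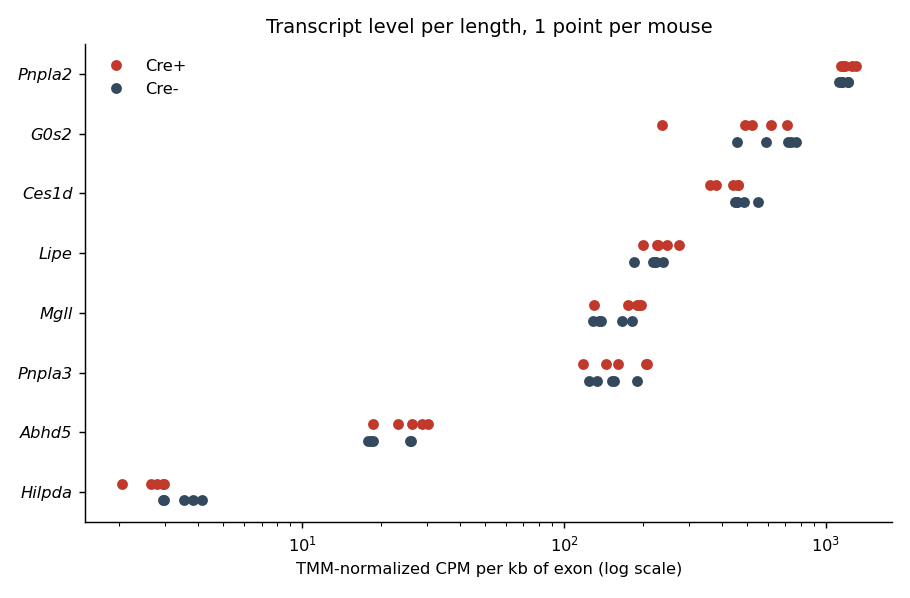
TMM-normalized CPM per kb of exon on a log axis, with 1 point per mouse and Cre+ (red) above Cre- (dark) within each gene. Levels run from 2.05 CPM per kb for Hilpda to 1299.8 CPM per kb for Pnpla2, and the ranges of Pnpla2, Abhd5 and Hilpda overlap that of no other gene.

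The ratio of inhibitors, coactivator and downstream lipases to ATGL was compared within each mouse, as counts per kb, by two-sided exact permutation tests with p adjusted over the 5 ratios (smallest p possible 0.00794). The Hilpda to Pnpla2 ratio was 0.00222, 0.00259, 0.00224, 0.00177 and 0.00228 in Cre+ mice, against 0.00314, 0.0036, 0.00264, 0.00293 and 0.00256 in Cre- mice. Its mean log2 difference was -0.42 (exact p = 0.0159, adjusted p = 0.0794), with 1 Cre+ mouse, replicate 2, inside the Cre- range. Without that mouse the difference was -0.48 and the adjusted p 0.0397. Leaving it out removed the overlap of the groups, and the permutation test then returned its smallest possible p. No conclusion is drawn from this value. The G0s2 to Pnpla2 ratio was 0.388, 0.544, 0.199, 0.612 and 0.403 in Cre+ mice, against 0.485, 0.623, 0.689, 0.376 and 0.639 in Cre- mice. Its log2 difference was -0.46 (exact p = 0.206, adjusted p = 0.437), within the overlap of the groups.

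The Abhd5 to Pnpla2 ratio was 0.016 to 0.0266 in Cre+ mice (median 0.0208) and 0.0147 to 0.0224 in Cre- mice (median 0.0166), with a log2 difference of 0.21 (exact p = 0.262, adjusted p = 0.437). The Lipe to Pnpla2 ratio was 0.176 to 0.237 in Cre+ mice (median 0.18) and 0.152 to 0.207 in Cre- mice (median 0.189), with a log2 difference of 0.06 (exact p = 0.611, adjusted p = 0.611). It was -0.01 without Cre- replicate 1 and without Cre+ replicate 4. The Mgll to Lipe ratio was 0.475 to 0.882 in Cre+ mice (median 0.842) and 0.58 to 0.831 in Cre- mice (median 0.699), with a log2 difference of 0.13 (exact p = 0.532, adjusted p = 0.611). Its lowest value was that of Cre+ replicate 4, where Lipe was highest and Mgll lowest among Cre+ mice.

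**Figure D4:**
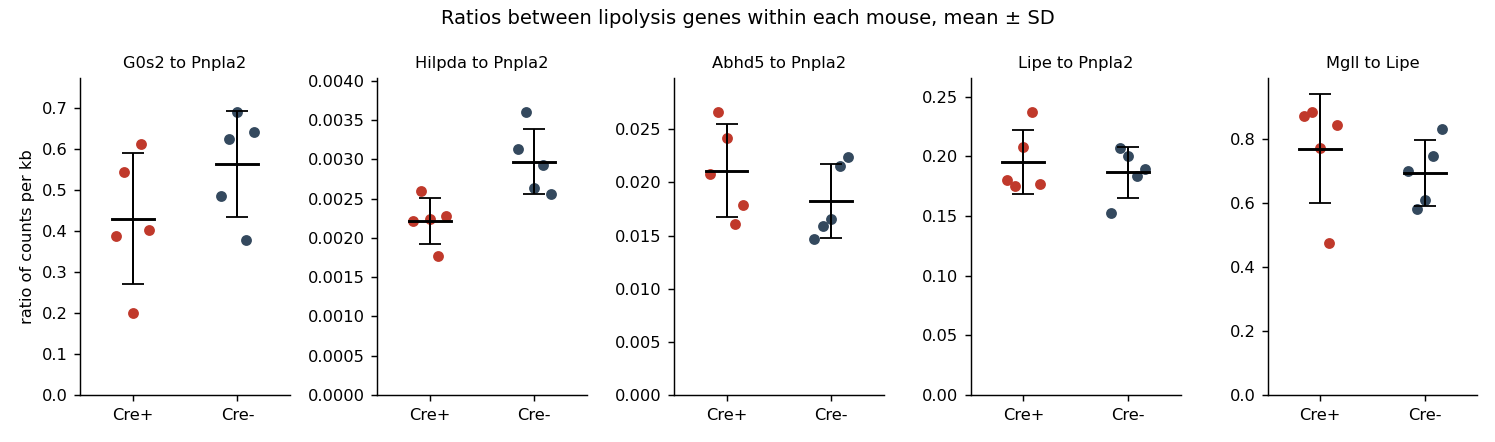
Ratios of counts per kb within each mouse for 5 pairs of lipolysis genes, with 1 point per mouse, Cre+ (red) left of Cre- (dark), a thick line at the mean and bars for the SD (n = 5 each). Cre+ and Cre- mice overlap in each panel, least for Hilpda to Pnpla2, where Cre+ mice reach 0.00259 and Cre- mice start at 0.00256.

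The 8 genes did not vary together from mouse to mouse. With each genotype's mean subtracted, the SD of log2 CPM was 0.07 for Pnpla2, 0.14 for Ces1d, 0.15 for Lipe, 0.22 for Hilpda, 0.23 for Mgll, 0.28 for Abhd5, 0.29 for Pnpla3 and 0.49 for G0s2, beside a median of 0.17 over the 12289 named genes whose log2 CPM averaged 0 or more. Pnpla2 was thus among the steadiest genes, at the 3.04th percentile, and G0s2 among the most variable, at the 95.6th percentile. Of 28 pairs, Mgll and Abhd5 were most alike, with Pearson's r of 0.84 and Spearman's rho of 0.82 over 10 libraries (r 0.66 without the 2 libraries farthest from the median of Mgll), and the next pair, Mgll and Ces1d, had r of 0.60. The other pairs had r from -0.50 for Lipe and Hilpda to 0.51 for Abhd5 and Ces1d. These are descriptions without a test, and the points share library, depth and scaling.

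Among all named genes above the same minimum level, those with the residual pattern most like that of each member were as follows, with r over the same 10 libraries. For Pnpla2 they were Clta, Hcfc1r1 and Sgta, each with r of 0.96. For Lipe they were Tram2 (r 0.96), Filip1 and Arhgef40 (r 0.95 each), and Tram2 was called lower in Cre+ mice (log2 FC -0.95, edgeR FDR 0.0429). For Abhd5 they included Lamp1, a membrane protein of the lysosome, and Atp6v1d, a subunit of its proton pump (r 0.94 each). For Mgll they were Mfsd4b1, H6pd (r 0.97 each) and Rab7 (r 0.96), a small GTPase of late endosomes and lysosomes. G0s2 was most like Tal1 (r 0.93), Smtnl2 and Arhgef28 (r 0.91 each), and r fell to between 0.65 and 0.72 without the 2 libraries farthest from the median of G0s2, while for the other members it stayed at 0.84 or above. Pnpla3 was most like Adh5 (r 0.95), Dennd2d and Uba2 (r 0.93 each), Hilpda like Gcat (r 0.94), Mrpl30 (r 0.93) and Abracl (r 0.92), and for Ces1d they included Sdhaf3 and Tmem220 (r 0.92 each).

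The genes around the 8 were set beside them in 9 lists, and edgeR called 1 gene in all, Kdm3a. Upstream, the list of the cAMP and protein kinase A arm held 18 genes, of which edgeR called 0, DESeq2 0 and limma voom 0, with a median log2 FC of 0.00. By unadjusted p below 0.05 there were 2 higher and 1 lower, where 6.4% and 5.95% of all genes were. The same shares apply to each list that follows. Adrb3, the main beta-adrenergic receptor of mouse brown adipocytes, had 292, 184, 326, 219 and 276 CPM in Cre+ mice, against 151, 224, 160.4, 211 and 201 CPM in Cre- mice (log2 FC 0.45, SE 0.16, edgeR FDR 0.28). Adrb1, another beta-adrenergic receptor, had 61.2, 42.0, 23.2, 58.1 and 64.6 CPM in Cre+ mice, against 31.3, 37.0, 29.5, 28.6 and 29.4 CPM in Cre- mice. Its log2 FC was 0.68 (edgeR FDR 0.295), and it was called without Cre+ replicate 3, the only Cre+ mouse below all Cre- mice (0.86, FDR 0.0151, with 0.128% of all genes called). The 3 highest values were those of the libraries with the added letter, and without these libraries the log2 FC was 0.06 (FDR 0.962). Only Cre+ replicates 2 and 3 remain there, with 42.0 CPM above and 23.2 CPM below all Cre- mice, so the 0.06 averages opposite values. It cannot tie the difference to the letter. Npr1, the natriuretic peptide receptor of the cGMP route to lipolysis, had a log2 FC of -0.25 (FDR 0.307), and Prkar1a, a regulatory subunit of protein kinase A, of 0.15 (FDR 0.445).

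Of 16 genes for signals that restrain lipolysis, edgeR called 0, with a median log2 FC of 0.06. There were 3 higher and 0 lower by unadjusted p below 0.05, where 6.4% and 5.95% of all genes were. DESeq2, which called 1.06% of all genes higher, called 2 higher, Hcar1 and Hcar2, receptors that lower cAMP in response to lactate and to ketone bodies, and limma voom 0. Hcar1 had 70.9, 54.9, 100.3, 67.4 and 68.0 CPM in Cre+ mice, against 38.7, 37.5, 70.8, 40.6 and 36.1 CPM in Cre- mice (log2 FC 0.69, SE 0.21, FDR 0.242 by edgeR and 0.027 by DESeq2). Every Cre- mouse but replicate 3 was below every Cre+ mouse, and without it edgeR called the gene (log2 FC 0.92, FDR 0.0418, with 0.0839% of all genes called). Hcar2 had 10.5, 7.28, 22.4, 11.3 and 15.3 CPM in Cre+ mice, against 3.66, 5.37, 8.45, 7.33 and 4.05 CPM in Cre- mice (log2 FC 1.21, SE 0.33, FDR 0.189 by edgeR and 0.0406 by DESeq2). The insulin signalling kinases Akt1 and Akt2 had log2 FCs of 0.29 (FDR 0.255) and 0.13 (FDR 0.427).

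At the droplet, 14 of 16 genes were tested and edgeR, DESeq2 and limma voom each called 0, with 1 higher by unadjusted p below 0.05 and a median log2 FC of 0.02. That gene was Plin1, the perilipin that holds ABHD5 at rest, with 1557, 1486, 1367, 1449 and 1482 CPM in Cre+ mice, against 1160.2, 1279.6, 1315, 1439.7 and 1247 CPM in Cre- mice. Its log2 FC was 0.19 (SE 0.07, edgeR FDR 0.304), with only Cre+ replicate 3 inside the Cre- range. Plin5, the perilipin of oxidative tissues that binds ATGL and ABHD5, had 0.16 (FDR 0.588), Plin4 -0.19 (FDR 0.435) and the seipin gene Bscl2 0.19 (FDR 0.469). Of 10 genes for delivery and turnover of ATGL, each of the 3 tools called 0 and 0 had an unadjusted p below 0.05. The largest of the 4 with the smallest p was 0.11 for Vcp, an ATPase of protein degradation, with 0.10 for Arf1, 0.10 for Faf2 and 0.07 for Rab7.

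Of 31 other lipid hydrolases, 18 were tested, and edgeR, DESeq2 and limma voom each called 0, with 1 lower by unadjusted p below 0.05 and a median log2 FC of 0.02. That gene was Abhd2, a relative of Abhd5 and a lipase in its own right, with 16.9 ± 1.90 CPM in Cre+ mice against 20.3 ± 1.59 CPM in Cre- mice (SD, n = 5 each; log2 FC -0.26, edgeR FDR 0.264). Without the 2 muscle-rich libraries Abhd2 was called (edgeR FDR 0.0299, with 1.62% of all genes called). These held its highest Cre+ value (20.1 CPM, replicate 4) and its lowest Cre- value (17.6 CPM, replicate 2), so leaving them out widens the gap. With each library left out alone Abhd2 was not called (lowest edgeR FDR 0.0555). The phospholipase Ddhd1 had -0.23, the diacylglycerol lipase Daglb 0.14 and Abhd6, another monoglyceride hydrolase, 0.13, with FDR of 0.494 to 0.589.

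Downstream, 19 of 20 genes for handling of fatty acids and glycerol were tested and edgeR called 0, with 2 higher and 1 lower by unadjusted p below 0.05 and a median log2 FC of 0.09. DESeq2 and limma voom, which called 2.28% and 0.837% of all genes, each called 1, Slc27a1, a fatty acid transporter of the plasma membrane. It had 326, 253, 373, 217 and 306 CPM in Cre+ mice, against 181, 169, 198, 228 and 192 CPM in Cre- mice (log2 FC 0.61, SE 0.13, edgeR FDR 0.0915, 0.00425 from DESeq2 and 0.0388 from limma voom). Only Cre+ replicate 4 was inside the Cre- range, and without it edgeR called Slc27a1 too, with 1.84% of all genes called. Aqp7, the channel through which glycerol leaves adipocytes, had 147, 166, 143, 143 and 136 CPM in Cre+ mice, against 174, 176, 163, 178 and 169 CPM in Cre- mice (log2 FC -0.23, SE 0.07, edgeR FDR 0.194), with only Cre+ replicate 2 inside the Cre- range. Dgat1, which makes triglyceride from diglyceride, had a log2 FC of 0.30 (FDR 0.197), and the fatty acid transporter Cd36 of -0.15 (FDR 0.531).

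Of 15 PPAR targets known to respond to fatty acids from lipolysis, edgeR called 0 and limma voom 0, with 2 higher and 1 lower by unadjusted p below 0.05 and a median log2 FC of 0.02. DESeq2, which called 1.06% of all genes higher and 1.22% lower, called 2, in opposite directions. Pdk4, the kinase that shuts off pyruvate dehydrogenase, had 1889.6, 1810.0, 1356, 2051 and 1122 CPM in Cre+ mice, against 2404, 2435, 1983, 2732 and 2403 CPM in Cre- mice (log2 FC -0.54, SE 0.15, FDR 0.187 by edgeR and 0.0394 by DESeq2). Ucp3, a mitochondrial carrier related to uncoupling protein 1, had 251, 244, 162, 176 and 212 CPM in Cre+ mice, against 160.4, 88.0, 159, 163 and 116 CPM in Cre- mice (log2 FC 0.61, SE 0.19, FDR 0.234 by edgeR and 0.0412 by DESeq2). The thioesterase Acot2 had 0.30 (FDR 0.162), with groups that did not overlap, and Cpt1a, the liver form of the enzyme that admits fatty acids to mitochondria, 0.29 (FDR 0.462).

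Of 20 transcription factors and cofactors that act on lipolysis genes, edgeR called 0, with 2 higher and 3 lower by unadjusted p below 0.05 and a median log2 FC of 0.01. DESeq2 called 2 lower, Cebpb and Sirt1, where it called 1.22% of all genes lower, and limma voom 1 lower, Cebpb, where it called 0.52%. Foxo1, which raises Pnpla2 transcription when insulin is low, had 101, 107, 90.4, 154 and 73.2 CPM in Cre+ mice, against 203, 101, 167, 181 and 173 CPM in Cre- mice (log2 FC -0.66, SE 0.22, edgeR FDR 0.268). Without the 2 muscle-rich libraries edgeR called Foxo1 (FDR 0.00187, with 1.62% of all genes called). These libraries held the highest Cre+ value (replicate 4) and the lowest Cre- value (replicate 2) of Foxo1. With each library left out alone Foxo1 was not called (lowest edgeR FDR 0.0597). Sirt1, a deacetylase that acts on FOXO1, had 18.1 ± 2.46 CPM in Cre+ mice against 24.8 ± 3.28 CPM in Cre- mice (SD, n = 5 each; log2 FC -0.45, FDR 0.119 by edgeR and 0.0198 by DESeq2). Cebpb, an adipogenic transcription factor, had 102 to 236 CPM in Cre+ mice against 343 to 429 CPM in Cre- mice. The groups did not overlap, which held for 2.67% of all genes. Its log2 FC was -1.14 (SE 0.19, FDR 0.0535 by edgeR, 8.81e-07 by DESeq2 and 0.00856 by limma voom). EdgeR called Cebpb without Cre+ replicate 2, 4 or 5 (FDR 0.0203 to 0.0349), but not without any other single library. Esrra, a nuclear receptor of oxidative metabolism, had a log2 FC of 0.21 (FDR 0.286).

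Hilpda responds to hypoxia-inducible factors, and 17 other hypoxia-responsive genes were tested. At an unadjusted p below 0.05 edgeR had 1 higher and 6 lower, where 6.4% and 5.95% of all genes were. The median log2 FC was -0.09, and 11 of 17 were below 0. EdgeR called 1 lower, Kdm3a, a histone demethylase, where 0.13% of all genes were called lower. DESeq2 and limma voom, which called 1.22% and 0.52% of all genes lower, each called 2 lower, Kdm3a and P4ha1. Kdm3a fell in Cre+ mice, with 28.4, 27.8, 26.2, 25.2 and 20.5 CPM, against 36.0, 37.6, 35.4, 33.3 and 36.7 CPM in Cre- mice (log2 FC -0.48, SE 0.09, edgeR FDR 0.0473). The groups did not overlap, but the call was lost without any of the 5 Cre- libraries and without Cre+ replicate 1, 2, 3 or 5 (FDR 0.056 to 0.156), and held without Cre+ replicate 4 (0.0219). It was also lost without the 3 lettered Cre+ libraries (0.0778), which leaves only Cre+ replicates 2 and 3.

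P4ha1, a subunit of collagen prolyl hydroxylase, had 42.1, 41.9, 17.8, 38.0 and 24.7 CPM in Cre+ mice, against 109.5, 61.3, 81.7, 84.0 and 76.5 CPM in Cre- mice (log2 FC -1.33, SE 0.25, FDR 0.0835 by edgeR and 2.24e-06 by DESeq2). The groups did not overlap. Its relative P4ha2 had a log2 FC of -0.60 (edgeR FDR 0.211) and Ankrd37, a small ankyrin repeat protein, of -0.84 (FDR 0.279). Summed over the list, hypoxia-responsive genes had 1686 to 2341 CPM in Cre+ mice against 2304 to 2702 CPM in Cre- mice, with only Cre+ replicate 4 inside the Cre- range. Hilpda itself was lowest in that mouse. Most of the gap between the sums lay in Pfkfb3, a glycolytic regulator and the most abundant gene of the list, named here after its values were seen. It averaged 872 CPM in Cre+ mice and 1278 CPM in Cre- mice (log2 FC -0.55, SE 0.20, edgeR FDR 0.289), while Vegfa averaged 448 CPM in Cre+ mice and 451 CPM in Cre- mice, and Pdk1 193 CPM in Cre+ mice and 172 CPM in Cre- mice.

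**Figure D5:**
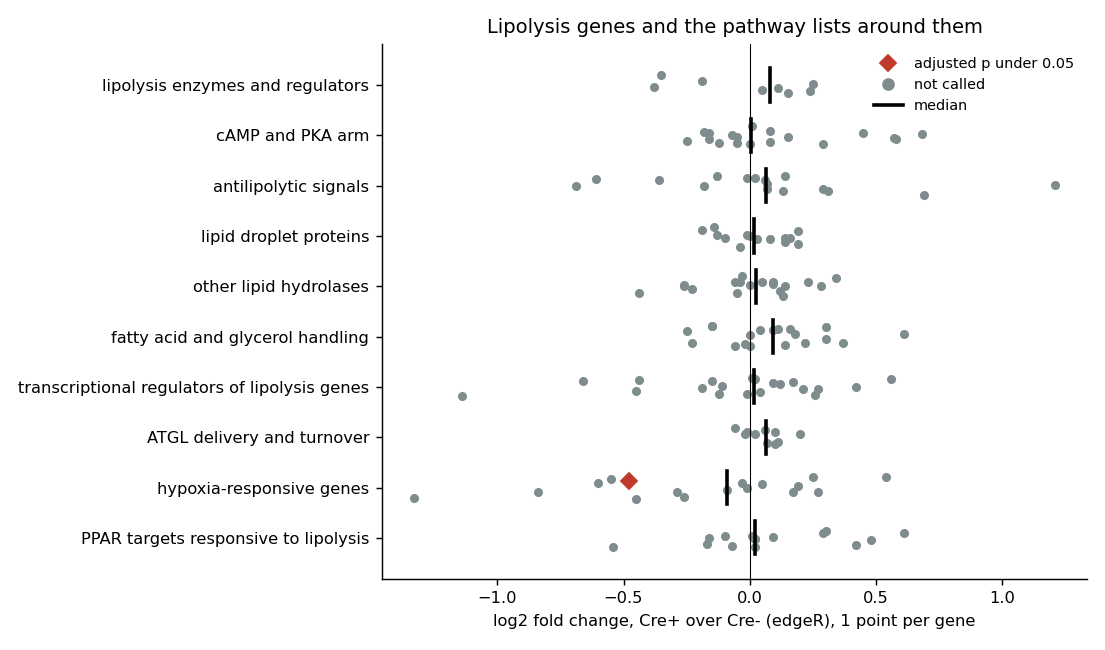
Log2 FC, Cre+ over Cre- mice (edgeR), of every tested gene in the lipolysis group and the 9 lists around it, with 1 point per gene and a black line at the median of each list. The red diamond is Kdm3a (-0.48), the only gene called, and the medians lie between -0.09 and 0.09.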

How the data were processed

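Interscapular BAT of 5 Cre+ and 5 Cre- mice was profiled by poly(A)-selected RNAseq. The authors used Trimmomatic, STAR and GRCm39 (processing notes of the submitters; versions of the first pair not given in the sources used here). The deposited values are raw counts per gene from featureCounts 2.0.1 per the file headers (GENCODE M28 exons, each mate counted singly, strand not used, reads with several alignments not counted). Symbols came from a table of gene identifiers that matched 52081 of 55414 genes. Samples were grouped by the genotype label. Genes were tested in edgeR 4.0.16 (R 4.3.3; TMM, filterByExpr with minimum count 10 and minimum total 15, robust quasi-likelihood F test). P-values were adjusted after Benjamini and Hochberg over 17690 genes, with calls under 0.05. The SE is the log2 fold change divided by the square root of F. Log2 CPM have a prior count of 2. Ratios used counts per kb of exon.

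The members, lists and tests were chosen with earlier results of these data known. The rule for naming took RetSat, the 8 genes, up to 4 tested genes per list with the smallest p, and the 3 genes most like each member. Some genes that the rule took are not reported here. Promoter stretches were chosen after the motifs had been found. Alternatives were DESeq2 1.42.0, limma 3.58.1 voom, other scalings and filters, a replicate block, each library left out, and the 3 lettered or the 2 muscle-rich libraries left out. Without the lettered libraries only Cre+ replicates 2 and 3 remain. The tests were checked on simulated counts. Libraries of a group differed far beyond sampling noise (chi-square per degree of freedom 52.1 to 212), so none looks like a second sequencing run of another. This cannot show that each is a separate mouse. Each was counted as a mouse of its own after the group sizes that the study reports.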

Additional observations from a re-analysis of the deposited data

Results flagged for a closer look

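Within each genotype, the highest and the lowest of 5 mice were compared with their nearest neighbour for the 8 lipolysis genes, the 5 ratios and the genes named from the lists. Of 98 groups, 3 had a mouse far from the others, where chance alone sets apart about 1 in 20. The Mgll to Lipe ratio was 0.475 in Cre+ replicate 4, with the next Cre+ mouse at 0.771. Hcar1 had 70.8 CPM in Cre- replicate 3, with the next Cre- mouse at 40.6 CPM. Abhd2 had 20.1 CPM in Cre+ replicate 4, with the next Cre+ mouse at 16.6 CPM. Cre+ replicate 4 had 224 CPM of skeletal muscle markers and the lowest adipocyte marker sum, and the part of either in these values was not tested. None of the 8 lipolysis genes was set apart by its own CPM in a single mouse.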

How the results depend on the processing

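None of the 8 lipolysis genes was called in any of 152 combinations of gene and alternative. The only change of sign among them was Pnpla2, at -0.01 without the 3 lettered Cre+ libraries, where Plin5 was -0.03 and Ddhd1 0.03. Leaving out each library in turn, the log2 difference of the Lipe to Pnpla2 ratio ran from -0.01 to 0.10. That of the Hilpda to Pnpla2 ratio ran from -0.48 to -0.34. Its adjusted p in the permutation test was under 0.05 only without Cre+ replicate 2, the Cre+ mouse inside the Cre- range. The Mgll to Lipe ratio ran from 0.07 to 0.29.

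Over all genes, 29 calls by edgeR stood against 393 by DESeq2, 148 by limma voom, 92 with no filter on low counts and 289 without the 2 muscle-rich libraries. Leaving out each library gave 9 to 331 calls, the most without Cre+ replicate 4, and 9 to 15 without any Cre- library but replicate 2 or without Cre+ replicates 1 and 5 (each left out alone). The cause was not tested. For the lists, leaving out each library gave 0 to 1 calls for the cAMP arm, for antilipolytic signals, for fatty acid and glycerol handling and for hypoxia-responsive genes, and 0 to 2 for transcriptional regulators (2 without Cre+ replicate 4). DESeq2 called 2 antilipolytic genes, 1 of fatty acid handling, 2 regulators, 2 hypoxia-responsive genes and 2 PPAR targets. Limma voom called 1 of fatty acid handling, 1 regulator and 2 hypoxia-responsive genes. Without the 2 muscle-rich libraries there were 1 other hydrolase, 1 of fatty acid handling, 3 regulators and 2 hypoxia-responsive genes. At least 10 counts in every library gave 1 regulator, and so did leaving out the lettered libraries, where hypoxia-responsive genes had 0.

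Same-numbered mice had correlations of -0.195 to 0.216 between their deviations from the genotype means. No reference was set beside these values, so they cannot exclude a pairing. The main test did not pair the mice. With the replicate number as a block, 1 antilipolytic gene (Hcar1) and 0 hypoxia-responsive genes were called, and 0 of the 8 lipolysis genes.

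With 5 mice per genotype, the 95% intervals leave room for a log2 FC of G0s2 down to -0.93 and of Abhd5 up to 0.58. Hilpda had at most 549 counts in a library. RNAseq of whole tissue from chow-fed mice bears neither on protein, phosphorylation or lipase activity nor on stimulated tissue.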
